A study of Mus musculus with 8 samples.

Results

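A set of 9 genes that mark exit from naive pluripotency was followed in 8 mouse induced pluripotent stem cell (iPSC) clones: *Fgf5*, *Otx2*, *Pou3f1*, *Sox3*, *Zic2*, *Sall2*, *Foxd3*, *Cldn6* and *Lef1*. They were chosen by name as genes known to rise when cells leave the naive state. Each symbol was matched to the RefSeq records of the deposited count table, keeping the record with the highest mean count. All 9 were found, each with 1 record, among 27052 records and 21428 gene symbols.

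The TKO clones (35, 37, 47 and 48) came from mouse embryonic fibroblasts (MEFs) with disrupted alleles of *Miwi* (*Piwil1*), *Mili* (*Piwil2*) and *Miwi2* (*Piwil4*), the genes of the 3 mouse PIWI proteins. The Ctrl clones (33, 34, 41 and 43) are labelled control, and the study's methods describe them as triple heterozygous littermates, while its legends also allow wild type. All MEFs were of mixed C57BL/6-s129 background with an *Oct4*-GFP reporter, and had been reprogrammed in serum and LIF by retroviral c-MYC, KLF4, OCT4 and SOX2. Each library is 1 clone, picked onto mitotically inactivated MEF feeders, so RNA of feeder cells may be present. How many embryos the clones came from is not stated, and clones may share a donor embryo. The p-values therefore measure the spread between clones, not between embryos. Within each genotype 2 clones are numbered in the forties and 2 in the thirties. The labels do not say what these numbers stand for, and the sets are called the forties and the thirties.

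Pluripotent mouse cells pass from a naive state, held by LIF and factors such as NANOG and KLF4, through a formative state to the primed state of the epiblast before gastrulation. In serum and LIF a culture is a mixture, and single cells move between more naive and more primed states. *Fgf5*, a secreted FGF ligand, is the classical epiblast marker. *Otx2*, a homeodomain factor, helps OCT4 move to new enhancers on naive exit, and *Pou3f1* (OCT6) is a POU factor of the epiblast and early neural cells. *Sox3*, *Zic2*, *Sall2*, *Foxd3* and *Lef1* encode transcription factors of the SOX, ZIC, SALL, forkhead and HMG-box families, and *Cldn6* encodes a tight-junction protein of early embryonic epithelia.

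The genes lie on 5 autosomes and the X chromosome (mm9, NCBIM37 annotation). *Fgf5* is at chr5:98683203-98706049 on the plus strand and *Otx2* at chr14:49277354-49287319 on the minus strand. *Zic2* (chr14:122874604-122879074, plus) and *Sall2* (chr14:52930847-52948437, minus) share chromosome 14 with *Otx2*. *Pou3f1* (chr4:124334896-124337899) and *Foxd3* (chr4:99322990-99325362, overlapping an annotated miRNA on the same strand) are on the plus strand of chromosome 4. *Cldn6* (chr17:23816332-23819413) and *Lef1* (chr3:130813389-130927274) are also on plus strands, and *Sox3* (chrX:58144545-58146605) on a minus strand. None overlaps a gene on the opposite strand. The counts cover whole transcripts, UTRs included.

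The 250 bases before the RefSeq start site are shown for *Fgf5* and for the outermost start of *Otx2*, the genes on which the results below turn (build GRCm38.p6, sequences from RefSeq). Capitals mark the TATAAA match, and the *Fgf5* stretch holds none of the motifs searched.
Fgf5, chr5:98253934-98254183, plus strand: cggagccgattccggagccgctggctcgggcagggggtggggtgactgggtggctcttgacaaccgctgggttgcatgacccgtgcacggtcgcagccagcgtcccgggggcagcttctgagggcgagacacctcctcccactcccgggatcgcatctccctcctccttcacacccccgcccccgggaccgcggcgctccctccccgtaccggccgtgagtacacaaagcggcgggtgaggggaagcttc
Otx2, chr14:48667645-48667894, minus strand: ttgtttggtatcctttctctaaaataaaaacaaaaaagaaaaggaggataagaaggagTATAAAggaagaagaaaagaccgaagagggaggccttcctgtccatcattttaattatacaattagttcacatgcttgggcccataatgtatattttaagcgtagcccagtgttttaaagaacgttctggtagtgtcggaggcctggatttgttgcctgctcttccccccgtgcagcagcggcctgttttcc
The *Fgf5* stretch is 70.8% G and C and that of *Otx2* 42%. In 300-base windows reaching 50 bases past the start, 7 motifs were searched on both strands. Of all 32851 such windows, 3.73% hold the TCF/LEF letters CTTTGAT and 7.06% the OTX letters TAATCC. The octamer ATGCAAAT is in 1.74% of them and the SOX letters CATTGT are in 12.6%. The TATA box TATAAA is in 13.6%, CCAAT in 37.4% and the E-box CACGTG in 7.15%. Windows were matched for 6 of the 9 genes, not for *Pou3f1*, *Sox3* and *Zic2*. TATAAA began at position -192 from the *Otx2* start shown, and at position 34 past the *Fgf5* start. *Foxd3* had CACGTG at -217 from its start. The innermost of the *Lef1* starts (position 131156294) had CATTGT at -132, CACGTG at -79 and, on the opposite strand, TATAAA at -231. The outer *Sall2* start had TATAAA at -145 and CCAAT at -86, and 2 inner *Otx2* starts had CCAAT at -70 and TAATCC at -211, both on the opposite strand. *Cldn6* had none of the 7. A match is a string of letters and not a shown binding site.

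The libraries hold 24593995 to 52457455 reads in TKO clones and 8983203 to 24688324 in Ctrl clones, with 23992893 to 28830217 in the forties and 8983203 to 52457455 in the thirties. Normalized counts below are reads divided by a median-ratio size factor. *Miwi* (*Piwil1*) was at 2.41 to 4.53 normalized counts in TKO clones and 8.13 to 28.8 in Ctrl clones. *Mili* (*Piwil2*) stood at 3845 to 10084 in TKO clones and 758 to 1028 in Ctrl clones, and *Miwi2* (*Piwil4*) at 936 to 2862 in TKO clones and 487 to 769 in Ctrl clones. The *Mili* and *Miwi2* alleles leave transcript in place, so these 2 counts do not check the labels. All 9 genes passed the filter of at least 5 reads in at least 4 libraries, which left 16235 records, and the fewest reads any of them had in a library was 10 (*Sox3*).

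Per kilobase of transcript, the mean level over the 8 clones was 660 normalized counts for *Cldn6*, 469 for *Otx2*, 118 for *Zic2*, 91.3 for *Foxd3* and 77.5 for *Sall2*. *Fgf5* followed at 70, *Pou3f1* at 53.6, *Lef1* at 24.3 and *Sox3* at 15.6. Of the 8 neighbouring pairs in this order, 3 differed by an exact two-sided sign-flip test over clones (p = 0.00781, the smallest that 8 clones allow, adjusted p = 0.0208). *Otx2* was above *Zic2*, *Pou3f1* above *Lef1* and *Lef1* above *Sox3* in 8 of 8 clones each. The place of *Fgf5* was not fixed. Its rank by level per kilobase was 3 in Ctrl 41 and Ctrl 43, 5 in TKO 47 and 6 in TKO 48, while it was 8 or 9 of the 9 genes in each of the thirties.

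**Figure D1:**
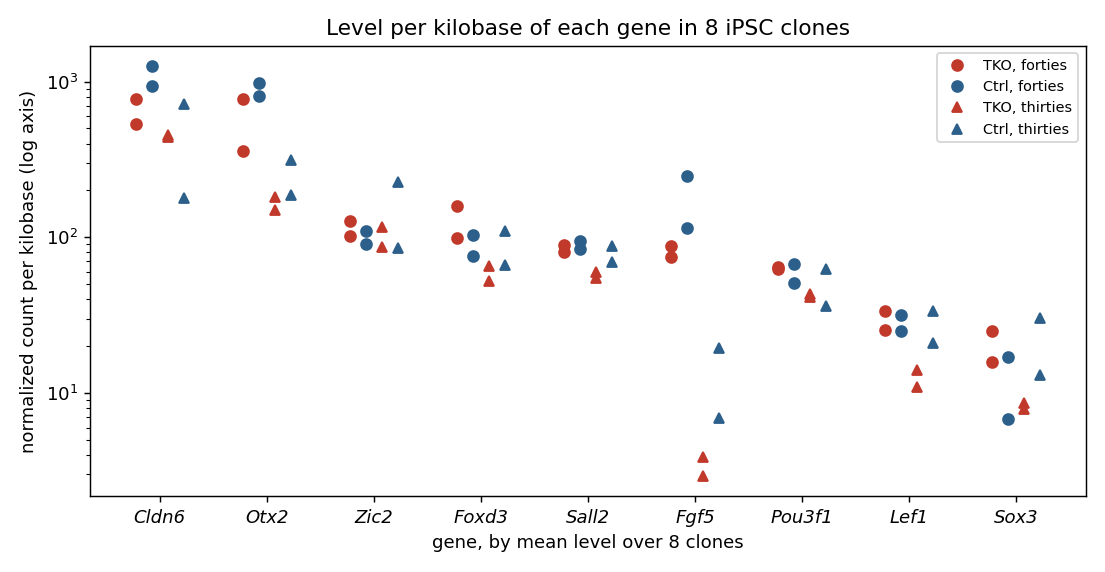
Normalized count per kilobase of transcript (log axis) of the 9 genes, ordered by their mean over 8 clones, with 1 point per clone (circles, forties; triangles, thirties; red, TKO; blue, Ctrl). Cldn6 leads at a mean of 660 and Sox3 is last at 15.6, and the points of Fgf5 are split by clone series.

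Spread between clones differed as widely as level. The SD of the log2 normalized count over the 8 clones was 2.38 for *Fgf5*, larger than that of 99.9% of tested records, and 1.08 for *Otx2* (95.7%). It was 0.86 for *Cldn6* and 0.76 for *Sox3*, and at the other end 0.34 for *Pou3f1* and 0.29 for *Sall2*, below the middle of all records (48.9% and 40.1% were smaller). The clones also fell apart when each gene was set against its own mean over clones. TKO 47 had 8 of 9 genes above the mean, TKO 48 and Ctrl 41 had 7, Ctrl 43 had 6, Ctrl 34 had 4, Ctrl 33 had 3, TKO 35 had 1 and TKO 37 had 0.

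TKO and Ctrl clones were compared first, which asks whether loss of the PIWI proteins moves these genes. No gene of the 9 passed edgeR's quasi-likelihood test (Benjamini-Hochberg adjusted p under 0.05 over 16235 records), where 0.24% of all records did. None reached an unadjusted p under 0.05, where 2405 of the 16235 records did. DESeq2 called 0 of the 9, and 513 of 13397 records. Their median log2 fold change was -0.25, against -0.01 over all records. TKO and Ctrl clones overlapped for every one of the 9 genes, while 8.33% of all records did not overlap.

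*Fgf5* had 7.36, 9.65, 220 and 186 normalized counts in TKO 35, 37, 47 and 48, against 48.8, 17.3, 623 and 287 in Ctrl 33, 34, 41 and 43. *Otx2* had 316, 258, 1334 and 621 in the TKO clones, in the same order, against 322, 541, 1711 and 1411 in the Ctrl clones. For both genes the 4 high clones are TKO 47, TKO 48, Ctrl 41 and Ctrl 43, the forties, so each genotype holds low and high clones. The fitted change in TKO clones was -1.25 on the log2 scale for *Fgf5* (SE 1.18, adjusted p = 0.628) and -0.67 for *Otx2* (SE 0.60, adjusted p = 0.612).

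*Cldn6* was the other gene with a wide range, at 672, 687, 1184 and 807 in the TKO clones, against 1086, 271, 1905 and 1429 in the Ctrl clones. Ctrl 34 was the lowest and Ctrl 41 the highest clone, and the change of -0.49 (SE 0.46) was not called. *Sall2* had the narrowest range on the log2 scale (0.80), with 279, 307, 413 and 453 in the TKO clones, against 447, 357, 428 and 487 in the Ctrl clones. The remaining changes ran between -0.43 for *Lef1* and 0.07 for *Foxd3*, and exact two-sided permutation tests over the 70 arrangements of the clones gave p between 0.229 and 0.914 for the 9 genes.

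**Figure D2:**
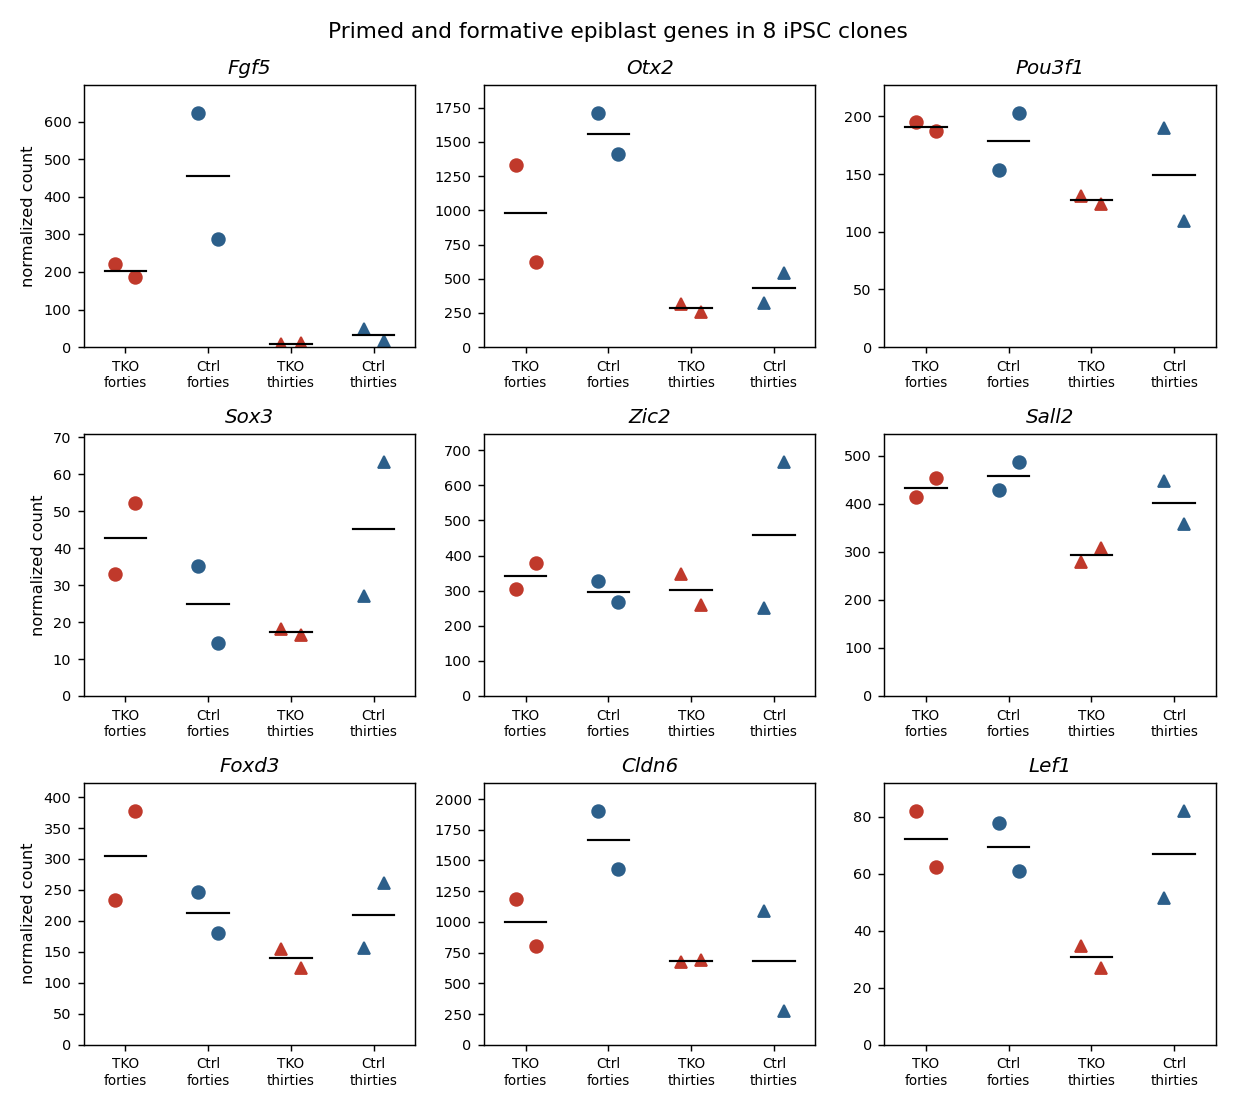
Normalized counts of the 9 genes on linear axes that start at 0, with 1 point per clone and a line at the mean of each pair of clones (circles, forties; triangles, thirties; red, TKO; blue, Ctrl). Fgf5 stands at 186 to 623 in the forties and 7.36 to 48.8 in the thirties, and Otx2 at 621 to 1711 in the forties and 258 to 541 in the thirties.

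The clone series were compared next. With genotype in the model, *Fgf5* and *Otx2* were higher in the forties than in the thirties and 0 of the 9 genes were lower, against 9.84% of all records called higher and 9.56% called lower. The median over the 9 genes was 0.59 on the log2 scale, against 0.00 over all records. *Fgf5* averaged 329 ± 200 normalized counts in the forties and 20.8 ± 19.1 in the thirties (SD, n = 4 each), a 19-fold difference (log2 fold change 4.24, SE 0.36, edgeR adjusted p = 3.11e-04). *Otx2* averaged 1269 ± 462 in the forties and 360 ± 125 in the thirties, 3.48-fold higher (1.80, SE 0.24, edgeR adjusted p = 0.00189). For these 2 genes every clone of the forties was above every clone of the thirties, which held in either direction for 16.1% of all records, and the exact two-sided permutation test gave p = 0.0286 for each, the smallest that 4 against 4 clones allow.

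The other 7 genes overlapped between the series and were not called. *Cldn6*, next in size, had 1184, 807, 1905 and 1429 normalized counts in the forties (TKO 47, TKO 48, Ctrl 41 and Ctrl 43), against 672, 687, 1086 and 271 in the thirties (TKO 35, TKO 37, Ctrl 33 and Ctrl 34). Only Ctrl 33 of the thirties reached into the range of the forties (log2 fold change 0.93, SE 0.35, edgeR adjusted p = 0.0915). *Pou3f1* stood at 154 to 203 in the forties and 109 to 190 in the thirties (0.44, SE 0.20), and *Sall2* at 413 to 487 in the forties and 279 to 447 in the thirties (0.38, SE 0.14), and neither passed.
*Zic2* was the gene with a negative value (-0.23, SE 0.29), with 268 to 379 in the forties and 252 to 667 in the thirties, where Ctrl 34 alone gave the highest count.

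Both genotypes were then examined on their own, a comparison chosen after seeing the data. Within TKO clones 5 of the 9 genes were higher in the forties, where 23.9% of all records were called in either direction, and within Ctrl clones 2 were, where 6.58% were called. *Fgf5* (4.55 within TKO and 3.93 within Ctrl, SE 0.49 and 0.50) and *Otx2* (1.77 and 1.83, SE 0.34 and 0.35) were called in both. *Lef1* (1.23), *Foxd3* (1.14) and *Sall2* (0.56) were called within TKO clones, and their values within Ctrl clones were 0.01, 0.00 and 0.20.
*Foxd3*, a forkhead factor that is also needed in the neural crest, had 233 and 378 normalized counts in TKO 47 and TKO 48, against 155 and 124 in TKO 35 and TKO 37, with 180 to 246 in Ctrl clones of the forties and 157 to 261 in those of the thirties. The genotype-by-series interaction tests whether the TKO effect differs between the series, which is the same contrast as whether the series effect differs between genotypes. It was not called for any of the 9 genes (1.3% of all records were called). Unadjusted p was under 0.05 for 3 of the 9 genes and for 3037 of the 16235 records. DESeq2 called 0 of the 9, and 914 of 13087 records. The largest values were 2.26 for *Sox3* (SE 0.69, edgeR adjusted p = 0.128), 1.22 for *Lef1* (SE 0.43, adjusted p = 0.175) and 1.14 for *Foxd3* (SE 0.44, adjusted p = 0.206).

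**Figure D3:**
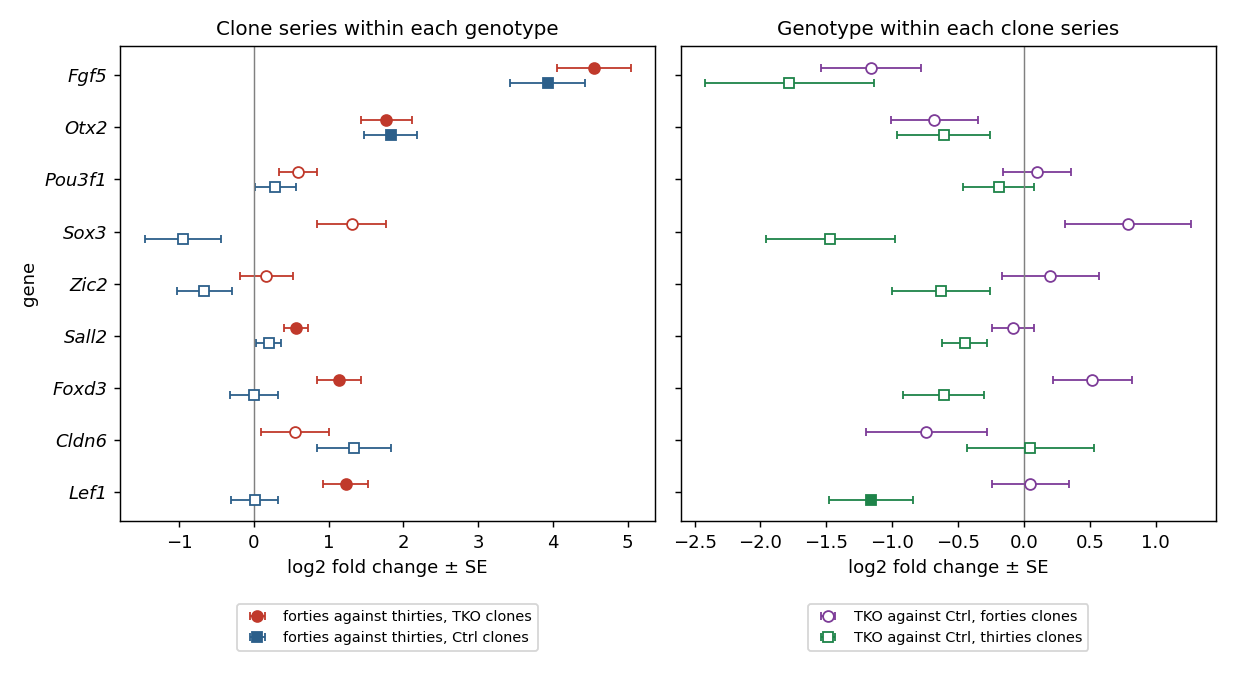
Log2 fold changes with SE of the 9 genes, forties against thirties within TKO and within Ctrl clones (left), and TKO against Ctrl within the forties and within the thirties (right). Filled symbols passed an adjusted p under 0.05: 5 genes within TKO and 2 within Ctrl on the left, and Lef1 in the thirties on the right.

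With the series taken into account, the genotype comparison gave 1 call among the 9 genes, *Fgf5*, lower in TKO clones (log2 fold change -1.36, SE 0.34, edgeR adjusted p = 0.0477). In that model 5.7% of all records were called. It was not refitted with other scaling, other filters, DESeq2 or a clone left out. Within the thirties the *Fgf5* value was -1.78 (SE 0.64, adjusted p = 0.0986) and within the forties -1.16 (SE 0.38, adjusted p = 0.136), and neither passed the edgeR test. DESeq2 called *Fgf5* within the thirties (-1.85, adjusted p = 0.00622), where it called 2545 of 13402 records. It also called *Fgf5* within the forties (-1.16, adjusted p = 0.0496), where it called 1099 of 12458. EdgeR with the main filter called 1928 and 322 of 16235 records in these comparisons. Without a filter edgeR called *Fgf5* within the thirties (-1.77, adjusted p = 0.0398), and 2461 of 22149 records. *Otx2* had -0.64 (SE 0.24, adjusted p = 0.127) in the model with series. In both series each TKO clone was below each Ctrl clone for *Fgf5* and *Otx2*, the only 2 of the 9 genes with this order, which was shared by 11.5% of all records. Markers of other cell types were called in the same model. *Sox7*, 1 of 8 primitive endoderm genes, was lower in TKO clones (-1.07, adjusted p = 0.0284), as was *Pax6*, 1 of 4 neural genes (-0.97, adjusted p = 0.0361), and *Hand1*, 1 of 4 trophoblast genes, was higher (1.24, adjusted p = 0.0476). Of the 10 fibroblast and feeder genes 0 were called in that model. An unadjusted p under 0.05 was reached by 1 of them and by 4132 of 16235 records. Within the thirties 8 of the 10 were lower in TKO clones, where 11.9% of all records were called in either direction. The part of these markers in the *Fgf5* value was not tested.

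Within the thirties *Lef1*, the nuclear partner of beta-catenin in WNT signalling, was the 1 gene called, where 11.9% of all records were. It had 34.5 and 27.0 normalized counts in TKO 35 and TKO 37, against 51.5 and 82.1 in Ctrl 33 and Ctrl 34 (log2 fold change -1.16, SE 0.32, edgeR adjusted p = 0.0447). These values rest on 61 and 56 reads in the TKO clones and on 19 and 57 in the Ctrl clones. Within the thirties both TKO libraries are deeper than both Ctrl libraries. In the forties *Lef1* had 82.1 and 62.4 in TKO 47 and TKO 48, against 77.9 and 61.1 in Ctrl 41 and Ctrl 43, so the low values belong to 2 clones. The call held with TMM scaling, without a filter, with at least 10 reads in every library, with DESeq2 and with records summed per symbol. Those fits called 1893 to 2545 records. It was lost with the thirties fitted alone (-1.17, edgeR adjusted p = 0.0816), where 1016 of 16775 records were called. With 1 clone left out a group of 1 clone remains, so only the log2 fold change is given. It was -0.75 without Ctrl 34, -1.34 without TKO 35, -0.99 without TKO 37 and -1.16 without Ctrl 41 or Ctrl 43. Over all 14 alternatives it ran from -1.42 to -0.75.
Fibroblast and feeder markers were called in the same comparison. Of 10 such genes tested, 8 were lower in TKO clones of the thirties (median -1.22), among them *Twist2* (-2.15), *Prrx1* (-1.83), *Thy1* (-1.25) and *Col1a2* (-1.20). Their summed normalized counts were 22065 and 20200 in TKO 35 and TKO 37, against 59005 and 36181 in Ctrl 33 and Ctrl 34, and none of the 10 was at 5 or fewer reads in every library. Ctrl 33 had the larger sum and the lower *Lef1* count of these Ctrl clones. In the forties the sums were 35735 and 26234 in TKO 47 and TKO 48, against 21049 and 21355 in Ctrl 41 and Ctrl 43. The part of these markers in the *Lef1* value was not tested.

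Within the forties no gene of the 9 was called, where 1.98% of all records were. Unadjusted p was under 0.05 for 1 of the 9 genes, *Fgf5*, and for 3215 of 16235 records. DESeq2 called 1 of the 9, also *Fgf5*, and 1099 of 12458 records. *Sox3*, the X-linked SOXB1 factor and the least abundant of the set, had 33.1 and 52.2 normalized counts in TKO 47 and TKO 48, against 35.3 and 14.3 in Ctrl 41 and Ctrl 43. In the thirties it had 18.1 and 16.4 in TKO 35 and TKO 37, against 27.1 and 63.4 in Ctrl 33 and Ctrl 34. The 2 differences have opposite signs (0.79, SE 0.48, in the forties and -1.47, SE 0.49, in the thirties) and neither was called.

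The series also differed in Y-linked transcripts. *Ddx3y* stood at 133 to 268 normalized counts in the forties and 5.31 to 8.64 in the thirties, and *Kdm5d* at 46.1 to 82.9 in the forties and 0 reads in each of the thirties. *Eif2s3y* and *Uty* were split in the same way, and *Xist*, the X-inactivation RNA, was counted in all clones, at 625 to 892 in the forties and 375 to 726 in the thirties. Clone number, Y-linked expression and whatever else separates the 2 sets of clones cannot be told apart. In bulk RNA, fewer cells of a type and less RNA per cell cannot be told apart either.

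Other genes of the same transition were read from lists. Of 15 other formative and primed genes tested, 6 were higher in the forties and 0 lower (median 0.42), against 9.84% and 9.56% of all records. The 6 genes included *Sox4* (1.43, edgeR adjusted p = 0.00642), *Cdh2* (1.34, adjusted p = 0.00893), the gene of N-cadherin, *Grhl2* (0.95, adjusted p = 8.71e-04), an epithelial factor of the formative state, and *Lin28b* (0.91, adjusted p = 0.0355). *Grhl2* had 757 to 1121 normalized counts in the forties and 404 to 615 in the thirties, without overlap. Within TKO clones 8 of the 15 were higher and within Ctrl clones 2, where 23.9% and 6.58% of all records were called in either direction. Between TKO and Ctrl clones, none of the 15 was called by edgeR without a covariate. None had an unadjusted p under 0.05, where 2405 of 16235 records did. With the series in the model *Grhl2* was lower in TKO clones (-0.46, adjusted p = 0.0333), 1 of the 15. In that model 5 of the 15 had an unadjusted p under 0.05, and 4132 of 16235 records. Within the thirties 4 of the 15 were lower in TKO clones and 0 higher, *Lin28b* (-1.69), *Cdh2* (-1.47), *Sox4* (-1.25) and *Nodal* (-0.67). Of all records 11.9% were called in that comparison. Within the forties 0 of the 15 were called, with 1 at an unadjusted p under 0.05, where 3215 of 16235 records were.

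Naive genes were compared in the same way. Of 15 tested, 0 were higher and 1 lower in the forties (median -0.11), against 9.84% and 9.56% of all records. The lower gene was *Pecam1* (-0.97, edgeR adjusted p = 0.027). Summed counts of the naive genes were 58188 to 76452 in the forties and 56077 to 78896 in the thirties. Within TKO clones *Tfcp2l1* (-0.39, adjusted p = 0.0387) was lower in the forties. Within Ctrl clones *Pecam1* (-1.37, adjusted p = 0.0478) and *Klf2* (-0.62, adjusted p = 0.0371) were. Within the thirties *Nr0b1* was lower (-0.70, adjusted p = 0.0438) and *Tfcp2l1* higher (0.49, adjusted p = 0.0276) in TKO clones. *Esrrb*, a defining naive gene, was at 5 or fewer reads in every library. *Esrrb* and *Pecam1* have 2 records each in the count table. How reads shared by the records of a gene were assigned is not stated, so levels of such genes are uncertain. The 10 genes of the FGF-ERK pathway, which drives naive exit, gave 0 calls between the series by edgeR. An unadjusted p under 0.05 was reached by 3 of them, and by 5719 of 16235 records. *Etv5*, an ERK target, had 0.21 and *Fgf4*, the FGF ligand of naive cells, -0.15, neither called. Within TKO clones 2 of the 10 were called between the series, *Etv5* higher (0.32, adjusted p = 0.0297) and *Fgfr2*, an FGF receptor, lower in the forties (-0.96, adjusted p = 0.0246). Of all records 23.9% were called there. Within Ctrl clones 0 of the 10 were called, with 0 at an unadjusted p under 0.05, where 4032 of 16235 records were.

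Of 6 *Lef1* partners and WNT targets tested, 1 was higher in the forties, *Sp5* (2.54, edgeR adjusted p = 0.00275), a direct WNT target, and 1 lower, *Cdx1* (-1.96, adjusted p = 0.0309). Over all records 9.84% were called higher and 9.56% lower. Among 18 paralogs of the 9 genes, *Sall1* (1.13, adjusted p = 0.00593) was higher and *Otx1* (-1.86, adjusted p = 0.0142) was lower in the forties. *Otx1*, the close relative of *Otx2*, had only 2.04 to 7.69 normalized counts in the forties and 10.8 to 21.6 in the thirties.

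Some markers of early differentiation were also higher in the forties. Of 7 primitive streak and mesoderm genes tested, 4 were higher in the forties and 0 lower (median 1.45), against 9.84% and 9.56% of all records. *T* (Brachyury) stood at 72.1 to 189 normalized counts in the forties and 10.1 to 27.1 in the thirties (log2 fold change 3.25, SE 0.27, edgeR adjusted p = 2.72e-04), and *Mixl1* (2.76), *Wnt3* (1.81) and *Evx1* (1.45) were called too. Of 8 primitive endoderm genes 5 were higher, with *Foxa2*, which also marks the anterior streak and definitive endoderm, at 30.6 to 96.6 in the forties and 2.71 to 6.27 in the thirties (3.42, adjusted p = 0.00214). Summed over the lists, streak genes gave 218 to 599 in the forties and 128 to 153 in the thirties, and primitive endoderm genes 2452 to 3529 in the forties and 1585 to 1720 in the thirties, with none of these genes at 5 or fewer reads in every library. Most of the endoderm sum is *Lama1*, a laminin chain, at 2122 to 3157 in the forties and 1296 to 1467 in the thirties. Other genes of the 2 lists overlapped between the series. *Eomes* had 15 to 41.5 in the forties and 16.3 to 33.8 in the thirties, and *Tbx6* 11.2 to 23.1 and 13 to 34.5. *Gata4* had 75.4 to 180 in the forties and 85 to 124 in the thirties, and *Gata6* 22 to 118 and 23 to 50.4. The part of these 2 lists in the *Fgf5* and *Otx2* values was not tested.

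Calls in other lineages went in both directions, where 9.84% of all records were called higher in the forties and 9.56% lower. Trophoblast genes were lower in the forties for 2 of 4 tested, *Hand1* (-2.96) and *Gata3* (-1.11). Of 4 neural genes 1 was higher, *Tubb3* (1.03), with *Neurog2* and *Dcx* at 5 or fewer reads in every library, and of 4 neural crest genes 1 was higher, *Snai2* (1.03), and 1 lower, *Erbb3* (-0.55), with *Pax3* and *Tfap2a* at 5 or fewer. Of the 10 fibroblast and feeder genes 2 were higher in the forties, *Prrx1* (1.38) and *Twist1* (0.73). Within TKO clones 9 of these 10 were higher in the forties and within Ctrl clones 3 were lower and 0 higher. The shares of all records called in either direction were 23.9% within TKO and 6.58% within Ctrl clones. The part of the fibroblast and feeder genes in the *Fgf5* and *Otx2* values was not tested.

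**Figure D4:**
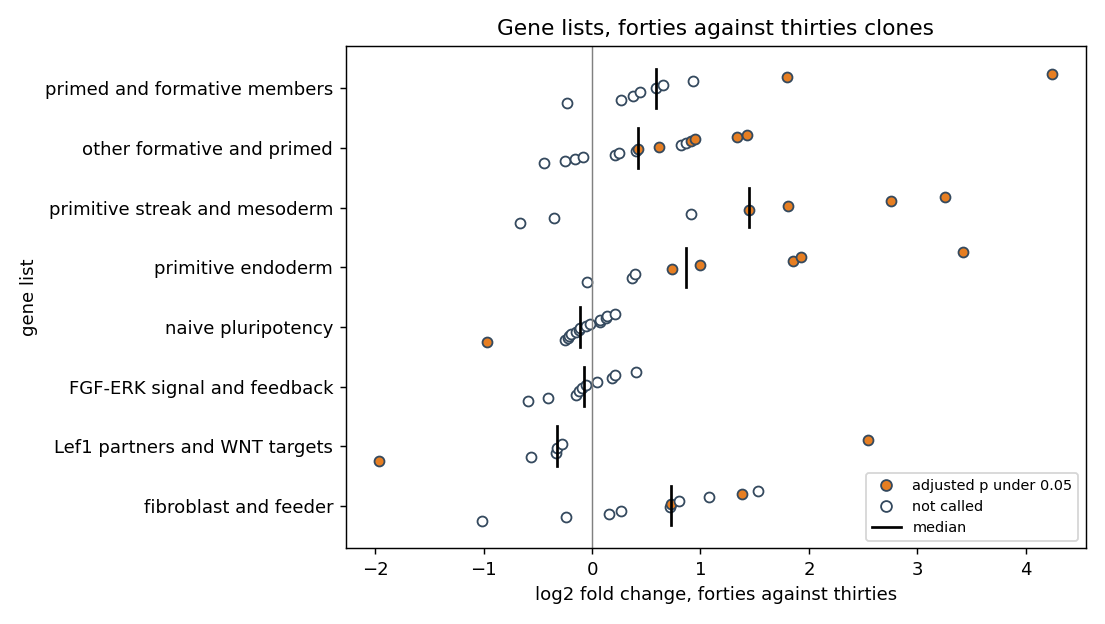
Log2 fold changes, forties against thirties, for each tested gene of the 9-gene set and of 7 lists, with 1 point per gene, filled where the adjusted p was under 0.05, and a line at the median. The medians are 0.59 for the 9 genes, 0.42 for other formative and primed genes, 1.45 for primitive streak and -0.11 for naive genes.

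Genes whose log2 pattern over the 8 clones was most like that of the set were sought among the 9713 records that averaged 100 normalized counts or more, and are given as a description. The mean of the 9 standardised genes was followed most closely by *Sall1*, the paralog of *Sall2* (Pearson r = 0.98 over 8 clones), and by *Hecw2* (r = 0.98). *Sall1* had 7920 to 9166 normalized counts in the forties and 2460 to 5770 in the thirties. *Fgf5* was followed most closely by *Srsf3* (r = 1.00) and *Eif1b* (r = 0.99), whose own differences between the series were 0.78 and 0.77 on the log2 scale, far smaller than that of *Fgf5*. *Otx2* was followed by *Urm1* and *2310033P09Rik* (r = 0.99 each), and *Pou3f1* by *Slc39a13* and *Gfod2* (r = 0.97 each). The genes compared share the same 8 libraries.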

How the data were processed

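RNA of 8 iPSC clones was prepared with the TruSeq RNA kit and read single-end for 50 cycles. Mapping by the authors used BWA (0.7.5a in the submitters' processing notes) and mm9 GenBank transcripts, and they deposited whole-number read counts per RefSeq record, neither scaled nor filtered. The rules for counting, multiply matching reads and strand are not given in the sources used here. Of 27052 records, 26321 were named from a RefSeq gene table (GRCm38.p6) and 1 (*Piwil4*) from the paper, and 4903 are at 0 in all libraries.

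Records reaching 5 reads in 4 or more libraries were tested by edgeR 4.0.16 (R 4.3.3) with quasi-likelihood F tests and median-ratio size factors, with Benjamini-Hochberg adjustment over all 16235 records. TKO and Ctrl clones were compared without a covariate, clone series with genotype in the model, and changes within each series and their interaction in a model of 4 groups. The standard error is the log2 fold change divided by the square root of F. Exact permutation tests (Python 3.11.15) used normalized counts on the log2 scale with 1 added. Alternatives were TMM scaling, other filters, DESeq2 1.42.0, records summed per symbol, other covariates, single series and leaving out each clone. The series comparison within each genotype and the exact test of the series were added after seeing the data. Methods were tested on simulated counts.

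The 9 genes and the 12 lists were chosen with earlier results of these data known. All 9 genes are described. From each list and comparison, called genes were named, at most 4 by size of change, or else the 2 with the highest mean. The genes named in the text are a part of these, since some are not reported here, with the Y-linked genes and *Xist*.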

Additional observations from a re-analysis of the deposited data

Results flagged for a closer look

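The change between TKO and Ctrl clones differed between the 2 series by the interaction test for 5 genes of the lists, and for none of the 9 epiblast genes. Of all records 1.3% were called. *Sall1*, the paralog of *Sall2*, differed by 1.13 on the log2 scale (forties minus thirties, SE 0.15, edgeR adjusted p = 0.0197), with -1.12 within the thirties. The other 4 are fibroblast and feeder genes, *Twist2* at 2.54, *Postn* at 1.83, *Col1a2* at 1.77 and *Thy1* at 1.58 (edgeR adjusted p = 0.0225, 0.0225, 0.031 and 0.0197). No clone stood apart from the other 3 of its group in the 36 groups of 4 clones examined for the 9 genes, where chance alone flags about 1 group in 20.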

How the results depend on the processing

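The calls of *Fgf5* and *Otx2* between the series held under all 16 alternatives (log2 fold change 3.93 to 4.60 and 1.55 to 1.99, highest adjusted p 0.00565 and 0.0211). The number of the 9 genes called in that comparison was 2 to 5 when 1 clone was left out, with 4 without Ctrl 33 and 5 without Ctrl 34. It was 3 without a filter or with DESeq2, and 5 within TKO clones. Calls over all records moved as well, from 3149 of 16235 in the main fit to between 1281 and 3816 with 1 clone left out. They were 3541 without Ctrl 33 and 3816 without Ctrl 34. Without a filter 3321 of 22149 records were called, with DESeq2 3913 of 15605 and within TKO clones 3877 of 16235. Between TKO and Ctrl clones, 1 of the 9 was called with the series in the model (*Fgf5*), where 926 of 16235 records were. In the other settings 0 of the 9 were called, and 15 to 513 records. Within the thirties 3 of the 9 were called without a filter (*Fgf5*, *Sox3* and *Lef1*), 2 with DESeq2 (*Fgf5* and *Lef1*) and 0 with that series fitted alone. Over all records 2461 of 22149, 2545 of 13402 and 1016 of 16775 were called in these fits, against 1928 of 16235 in the main fit. Within the forties 1 of the 9 was called with DESeq2, where 1099 of 12458 records were, against 322 of 16235 in the main fit. The interaction gave 0 of the 9 without a filter or with DESeq2. Leaving out 1 clone left a group of 1 clone in the fits within a series and of the interaction, so their calls are not counted here. Of 8 neighbouring pairs of levels 3 to 5 differed with 1 clone left out, 4 without Ctrl 33 or TKO 48 and 5 without Ctrl 34. The cause was not tested.

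Directions reversed only for values that were not called in the main fit. Some of the reversed values come from fits with a group of 1 clone, whose calls are not counted here. Leaving out 1 clone gave, between TKO and Ctrl clones, -0.19 to 0.08 for *Pou3f1*, -0.66 to 0.21 for *Sox3*, -0.38 to 0.19 for *Zic2* and -0.32 to 0.27 for *Foxd3*, which was also -0.03 with the series in the model. Between the series it gave -0.13 to 0.94 for *Sox3* and -0.40 to 0.20 for *Zic2*, with -0.95 for *Sox3* within Ctrl clones and 0.17 for *Zic2* within TKO clones. Within the thirties it gave -0.58 to 0.22 for *Pou3f1*, -1.14 to 0.26 for *Zic2* and -0.68 to 1.33 for *Cldn6*, and within the forties -0.08 to 0.31 for *Pou3f1*, -0.17 to 0.02 for *Sall2* and -0.15 to 0.24 for *Lef1*. For the interaction it gave -0.16 to 1.33 for *Fgf5*, -0.72 to 0.39 for *Otx2*, -0.12 to 0.68 for *Pou3f1* and -0.06 to 1.34 for *Zic2*. No paired analysis was possible because TKO and Ctrl clones have no clone number in common. *Fgf5* rests on 12 to 20 reads per library in the thirties, which hold both the shallowest library (Ctrl 33) and the deepest ones (TKO 35 and TKO 37).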
